A study of Mus musculus with 8 samples.

Results

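The genes examined were the 2 mouse genes for histone H3.3, H3f3b and H3f3a, and 8 genes for proteins that place H3.3 in chromatin or that bind or act with such proteins. These 8 were Hira, Hirip3, Cabin1, Ubn1, Asf1a, Daxx, Atrx and Dek. All probes whose platform symbol, or an older name for the same gene, was one of these 10 genes were taken. That gave 15 of the 25697 probes on the array, for 8 of the 10 genes. Cabin1 and Ubn1 had no probe in the annotation used here and were not analysed. Of the 15 probes, 8 passed the detection filter (p under 0.05 against negative control beads, on 3 or more of the 8 arrays), and these stood for 6 genes, H3f3b, H3f3a, Hira, Hirip3, Daxx and Dek. In all, 11152 probes and 8488 genes passed that filter.

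H3.3 differs from the replication-dependent H3 proteins by only a few residues, but its genes are transcribed through the whole cell cycle, and it can be placed on DNA without replication. H3f3b and H3f3a encode the same protein from separate transcripts. In one known route the HIRA complex, which holds HIRA, UBN1 and CABIN1 and receives H3.3-H4 from ASF1A, deposits H3.3 at active genes. In the other, DAXX with the remodeler ATRX deposits it at repeats, telomeres and pericentric heterochromatin.

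The cells were mouse embryonic fibroblasts (MEFs), taken at embryonic day 12.5 and labelled H3f3b Fl/Fl on a C57BL6J background. Per the methods of the study, loxP sites surround exons 2 to 4 of H3f3b, which hold its entire coding sequence, and exon 1 stays after recombination. Each of 3 lines, cKO1, cKO2 and pcKO1, was given either a retrovirus for Cre and GFP (the Cre arm) or the GFP vector (the GFP arm), so every culture in both arms carried floxed H3f3b and a retrovirus. The methods describe no sorting of the cells, and their RNA was hybridized to Illumina MouseRef-8 BeadChips, with 4 arrays per arm. The RNA of cKO2 was hybridized in duplicate for each arm, and duplicates were averaged. Thus n is 3 lines, each of them 1 culture per arm. The p-values for Cre against GFP speak only for these lines. The spread behind them joins that between these lines (2 residual degrees of freedom) with that of other genes (6.31 prior degrees of freedom). The table with detection p-values names its cultures MEF D, MEF G1, MEF G2 and MEF D pooled. Scaled to the same mean, each of its columns matched 1 array of the same arm within 1% at 100% of probes, which puts MEF D at cKO1, MEF G1 and MEF G2 at the cKO2 pairs, and MEF D pooled at pcKO1. How MEF D and MEF D pooled are related is not given in the sources used here, so cKO1 and pcKO1 may share a source, and n may overstate the independent lines.

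Mean scanner signal ran from 341 to 626 and detected probes from 9741 to 10888 of 25697 over the 8 arrays. Of 10 fibroblast genes 8 passed the filter, and Col1a1, a chain of collagen I, had an intensity of 2875 to 11542, while Postn was detected on 0 of 8 arrays. Line pcKO1 stood apart. Thy1, a surface marker of many fibroblasts, had an intensity of 10168 (GFP) and 10732 (Cre) in pcKO1 and of 149 to 530 on the other 6 arrays. Lyz2, the lysozyme of macrophages, had an intensity of 5228 (GFP) and 3220 (Cre) in pcKO1 and of 113 to 139 on the other 6 arrays. Adgre1, which encodes the macrophage surface marker F4/80, had 518 and 462 in pcKO1 against 106 to 151 elsewhere. These values are from the probe ILMN_1216880, detected on 2 of 8 arrays. Another Adgre1 probe, ILMN_2847787, passed the filter, with a mean log2 level of 6.83 (GFP) and 7.14 (Cre). Its levels by line were not read here. The summed intensity of the 4 macrophage markers with a probe was 6070 and 4023 in pcKO1 and 490 to 576 on the other arrays, while Ptprc, the pan-leukocyte CD45 gene, was detected on 0 of 8. None of the 4 endothelial markers passed the filter. Levels of Thy1 and of macrophage markers thus differed by line, and their part in the values of pcKO1 below was not tested.

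The promoter sequences of the H3.3 genes and of Hirip3 are shown because Cre removes coding exons of H3f3b but leaves its start region in place, because H3f3a is the intact gene for the same protein, and because Hirip3 had the most even change among the chaperones. They are the 250 bases before the annotated start in RefSeq (GRCm38.p6), 5′ to 3′ on the gene's strand, at chr11:116024505-116024754 (minus strand) for H3f3b, chr1:180813606-180813855 (minus strand) for H3f3a and chr7:126861722-126861971 (plus strand) for Hirip3. Capitals mark the CCAAT box (CCAAT), the TATA box (TATAAA) and the GC box (GGGCGG) on either strand, with overlapping GC boxes run together.
H3f3b: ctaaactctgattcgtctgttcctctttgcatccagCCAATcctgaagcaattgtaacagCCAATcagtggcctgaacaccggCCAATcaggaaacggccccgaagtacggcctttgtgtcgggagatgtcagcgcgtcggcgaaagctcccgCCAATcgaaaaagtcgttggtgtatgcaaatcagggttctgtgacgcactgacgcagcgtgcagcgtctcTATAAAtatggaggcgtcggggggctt
H3f3a: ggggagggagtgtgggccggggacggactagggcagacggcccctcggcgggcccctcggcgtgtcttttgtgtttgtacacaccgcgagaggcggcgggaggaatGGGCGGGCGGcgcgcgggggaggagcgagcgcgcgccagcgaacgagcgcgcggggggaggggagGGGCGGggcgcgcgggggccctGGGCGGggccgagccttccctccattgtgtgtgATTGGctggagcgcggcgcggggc
Hirip3: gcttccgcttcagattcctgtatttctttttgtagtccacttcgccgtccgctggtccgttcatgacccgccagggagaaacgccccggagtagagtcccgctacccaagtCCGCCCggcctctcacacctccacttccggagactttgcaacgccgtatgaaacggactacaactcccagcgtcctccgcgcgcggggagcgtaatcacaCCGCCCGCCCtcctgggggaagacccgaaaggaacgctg

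The upstream regions of the H3.3 genes were built differently. H3f3b had 4 CCAAT motifs, whose far ends lay 214, 190, 167 and 97 bases before the start, and 1 TATAAA whose far end lay 27 bases before it, with no GGGCGG. H3f3a had no TATAAA, 1 CCAAT on the opposite strand and 4 GGGCGG. Hirip3 had 3 GGGCGG and neither of the other motifs. Among 32851 promoter windows of this length, 33.8% held a CCAAT and 0.84% held at least 4. A GGGCGG was in 32.7%, with at least 4 in 4.09%, and 12.4% held a TATAAA. G and C made up 54% of the H3f3b window, 77.2% of that of H3f3a and 61.6% of that of Hirip3. All 10 genes had an entry, and H3f3b was the one member with a TATAAA. A match is a description of letters and not of a bound site.

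The first comparison asked whether H3f3b RNA was lost after Cre. Deposited intensities of its probe went from 4420 (GFP) to 169 (Cre) in cKO1. In cKO2 they went from 5549 to 215 in the first duplicate pair and from 6223 to 220 in the second. In pcKO1 they went from 4082 to 920. All 4 Cre arrays lay below all 4 GFP arrays, and the pcKO1 Cre array was the highest of the Cre arm.

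On the normalized log2 scale the change (Cre minus GFP) of H3f3b was -5.32 (cKO1), -5.11 (cKO2) and -2.17 (pcKO1). These values correspond to a remaining share of the GFP signal of 2.5%, 2.89% and 22.2%, in the same order. In cKO1 the probe was not above background after Cre, so its loss is a bound, which holds for this normalized scale only. With the Cre level set at the lowest of any detected probe on that array (6.78), H3f3b was at least 38.5-fold lower on this scale, with at most 2.6% left. Without background correction, on the deposited intensities, the shares were 3.82% in cKO1 and 22.5% in pcKO1. Per the methods, nearly all cells of every sample expressed GFP at harvest, which marks the vector and not the recombined allele. In bulk RNA, cells that kept the gene and RNA left in cells that had lost it cannot be told apart. The position of the probe relative to the deleted exons was not known here, so the value checks the label only as far as the probe lies in the deleted part.

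The background of the assay bears on these numbers. Probes detected on no array, 11878 of them, had normalized log2 levels with a median of 6.18 and a 5th to 95th percentile of 5.84 to 6.54. H3f3b stood at 6.73 on the cKO1 Cre array, 7.40 and 7.43 on the cKO2 Cre arrays and 9.77 on that of pcKO1. The probe passed the detection threshold on all 4 GFP arrays (detection p of 0 on each) and on 3 of the 4 Cre arrays, where its highest detection p was 0.0602. The array on which it was missed was the cKO1 Cre array, with an unscaled signal of 113.

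Over the 3 lines the mean change of H3f3b was -4.20 ± 0.51 (SE of the limma fit, n = 3 lines, 95% interval -5.38 to -3.02). Its unadjusted p was 3.01e-05 and its adjusted p 0.188 by limma, with Benjamini-Hochberg over 8488 genes. By that rule 0% of all genes were called, and 3.69% (313 genes) had an unadjusted p under 0.05. The spread of the change between lines was an SD of 1.76, larger than for 99.9% of the genes tested, and pcKO1 lay farthest from the mean. The SE and interval of the fit draw on the spread of other genes too, and the interval does not hold the -2.17 of pcKO1. The change was -5.21 without pcKO1, -3.64 without cKO1 and -3.74 without cKO2. Each of those fits called H3f3b, but they had 1 residual degree of freedom and took their spread almost wholly from other genes.

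H3f3b was one of 2 genes at least 2-fold lower in each of the 3 lines (0.0236% of all genes), and one of 4 at least 1.5-fold lower in each (0.0471%). The line with the smallest loss, pcKO1, was also the only one of the 3 in which Lyz2 and Adgre1 (probe ILMN_1216880) stood well above the other arrays. This held in both arms, and Thy1 did so as well. How many of its cells those markers stand for was not measured.

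**Figure D1:**
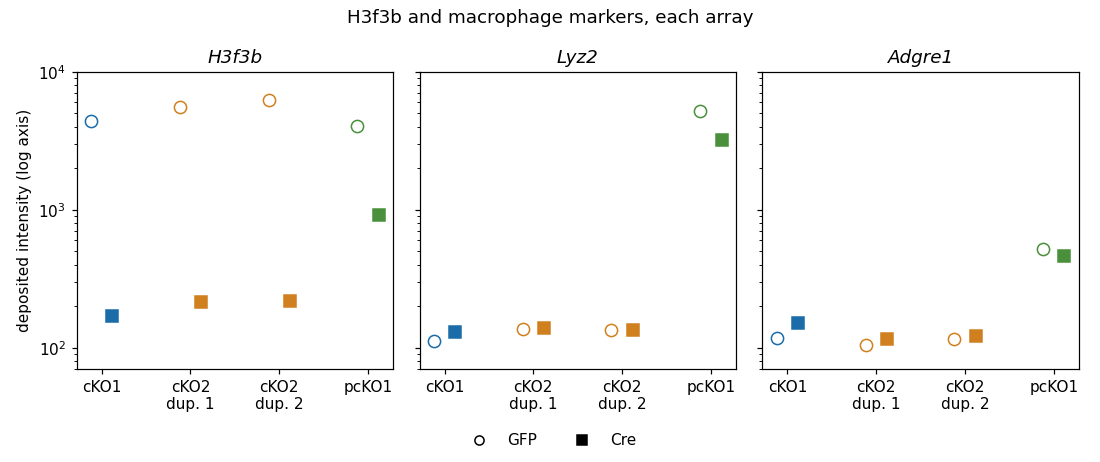
Deposited intensity (log axis) of H3f3b and of the macrophage markers Lyz2 and Adgre1 (probe ILMN_1216880) on each of 8 arrays. Open circles are GFP and filled squares are Cre. H3f3b was at 169 in cKO1 and 920 in pcKO1 after Cre, and Lyz2 was at 5228 and 3220 in pcKO1 against 113 to 139 on the other arrays.

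H3f3a, the gene that stays intact, was read by 2 probes of very different brightness. The bright probe, ILMN_3145213, had intensities of 4398 (GFP) and 3449 (Cre) in cKO1 and of 3065 and 3346 in pcKO1. In cKO2 it had 6487 and 6522 in the first pair and 6550 and 5689 in the second. The arms overlapped, and cKO2 was the highest line in both.

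The log2 change of H3f3a by this probe was -0.31 (cKO1), -0.092 (cKO2, with 0.036 and -0.22 for its pairs) and 0.16 (pcKO1). Its mean was -0.081 ± 0.12 (SE, n = 3 lines, limma adjusted p = 0.973). The 95% interval of -0.37 to 0.20 runs from 0.776 to 1.15 times the GFP level, so a change within those bounds, in either direction, is not excluded. Those bounds are not a limit of detection, since no gene passed the adjusted threshold in this fit, H3f3b included. Without cKO1 the sign turned, to 0.033.

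The dim H3f3a probe, ILMN_3066986, read lower. Its log2 levels went from 7.09 to 6.69 in cKO1, from 7.47 to 7.19 and from 7.27 to 7.28 in the cKO2 pairs, and from 6.97 to 6.40 in pcKO1. Its signal passed detection on 4 of 4 arrays in the GFP arm and 2 of 4 in the Cre arm, where it was missed in cKO1 and pcKO1. Its mean change was -0.37 ± 0.14 (SE, n = 3 lines), with an unadjusted p of 0.0263 and a limma adjusted p of 0.963 over all 11152 filtered probes. The probes of H3f3a disagreed in direction in pcKO1 (0.16 by the bright probe and -0.57 by the dim one) and in both cKO2 pairs. Those pairs were at 0.036 and -0.22 by the bright probe and at -0.28 and 0.0044 by the dim one. In cKO1 and in the cKO2 mean both probes were lower after Cre, by different amounts. The dim probe had a mean log2 level of 7.05 over the 8 arrays.

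Levels of H3f3a differed between lines. Its mean over both arms was 12.62 in cKO2, 11.88 in cKO1 and 11.62 in pcKO1 (log2). The line F-test of limma asks whether lines differ beyond the spread of arms within lines. The GFP and Cre arms of a line stand in for replicates there, here and for the genes below. It gave an adjusted p of 0.00296, at a threshold that 44.6% of all genes passed. By pairwise contrasts, adjusted over all genes and 3 contrasts together, cKO2 was higher than cKO1 by 0.74 ± 0.15 (SE, adjusted p = 0.00863, limma). The lower neighbours, pcKO1 and cKO1, differed by -0.27 ± 0.15 (adjusted p = 0.229, limma), and without cKO2 the call was lost (adjusted p = 0.457). H3f3b in the same test had an adjusted p of 0.183.

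**Figure D2:**
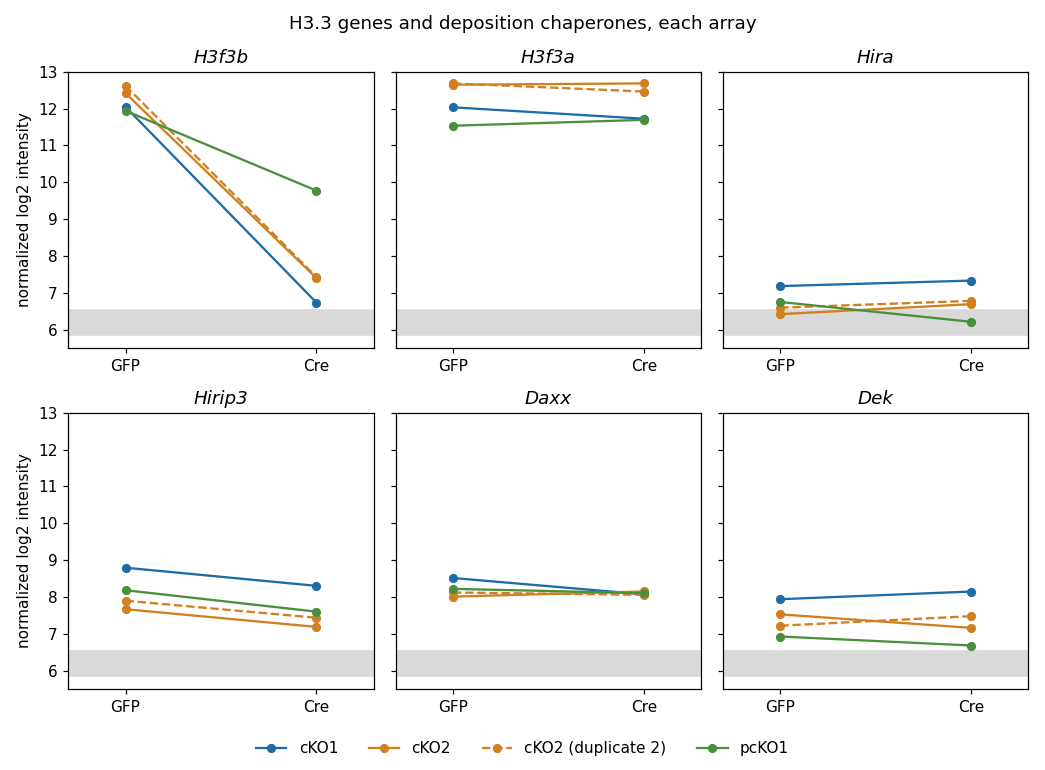
Normalized log2 intensity of the probe that stands for each of the 6 genes tested, on each array, with lines joining the GFP and Cre arms of 1 line. The grey band is the 5th to 95th percentile of probes detected on no array (5.84 to 6.54). H3f3b was lower after Cre in every line, Hirip3 had changes of -0.58 to -0.47, and the lines kept their order for Hirip3.

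The next comparison asked whether the HIRA route differed between arms. Hirip3 encodes a protein that binds HIRA and histones. It was detected on 4 of 4 arrays in both arms, with a highest detection p of 0.00251. Its intensities went from 478 (GFP) to 344 (Cre) in cKO1 and from 346 to 255 in pcKO1. In the cKO2 pairs they went from 252 to 193 and from 293 to 221. Within every pair the Cre array was the lower, though the arms overlapped across lines.

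The log2 change of Hirip3 was -0.49 in cKO1, -0.48 and -0.46 in the cKO2 pairs and -0.58 in pcKO1. The SD over the lines was 0.059, and only 5.34% of genes had a smaller one. The mean change was -0.52 ± 0.13 (SE, n = 3 lines, 95% interval -0.82 to -0.21), which leaves 69.9% of the GFP level. Its unadjusted p was 0.00442 and its limma adjusted p 0.967, so it did not pass the threshold. Hirip3 and H3f3b were the members lower in all 3 lines, 2 of 6 tested, beside 13.2% of all genes. Hirip3 was among the lower genes already known from these arrays when the members were chosen, so its direction is no independent support.

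Hirip3 also differed between lines. Its mean over both arms was 8.55 (cKO1), 7.89 (pcKO1) and 7.54 (cKO2) on the log2 scale, with a line F-test adjusted p of 0.00456 (limma). Line cKO1 was above cKO2 (contrast -1.002 ± 0.16 for cKO2 minus cKO1, adjusted p = 0.00321, limma) and above pcKO1 (contrast -0.66 ± 0.16, adjusted p = 0.019). The lower neighbours pcKO1 and cKO2 differed by 0.35 ± 0.16 (adjusted p = 0.15), and without cKO2 the line call was lost (adjusted p = 0.0755).

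Proliferation genes moved with the line as well. The summed intensity of 13 of them was 16299 (GFP) and 20957 (Cre) for cKO1. For the cKO2 pairs it was 6066 and 4623, then 6238 and 4738, and for pcKO1 it was 9661 and 6719. The order of the lines was that of Hirip3. After Cre, however, 10 of the 11 proliferation genes tested were higher in cKO1 (median log2 change 0.33), where Hirip3 was at -0.49. All 11 were lower in cKO2 (median -0.42) and in pcKO1 (median -0.49). Their part in the Hirip3 values was not tested.

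Hira itself, the gene for the scaffold of the complex, lay close to background. The brighter of its probes, ILMN_1239277, passed detection on 2 of 4 arrays in the GFP arm and 3 of 4 in the Cre arm. It was missed on both cKO2 GFP arrays and on the pcKO1 Cre array. Its log2 levels went from 7.18 to 7.33 in cKO1, from 6.42 to 6.69 and from 6.59 to 6.78 in the cKO2 pairs, and from 6.75 to 6.21 in pcKO1. It was thus higher after Cre in cKO1 and in both cKO2 pairs and lower in pcKO1. The pcKO1 Cre level and the GFP level of the first cKO2 pair lay inside the range of undetected probes, so the directions in cKO2 and pcKO1 each rest on a value at background.

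The mean change of Hira was -0.054 ± 0.17 (SE, n = 3 lines, 95% interval -0.45 to 0.34, limma adjusted p = 0.988), and without pcKO1 it was 0.19. The second Hira probe was detected on 1 of 4 arrays in each arm, did not pass the filter and had a change of 0.046. By line, the brighter Hira probe stood at 7.25 (cKO1), 6.62 (cKO2) and 6.48 (pcKO1, F-test adjusted p = 0.0332, limma). The contrast of pcKO1 minus cKO1 was -0.78 ± 0.21 (adjusted p = 0.0264, limma), that of cKO2 minus cKO1 was -0.64 ± 0.21 (adjusted p = 0.0529), and that of pcKO1 minus cKO2 was -0.14 ± 0.21 (adjusted p = 0.659). Without cKO1 the line call was lost (adjusted p = 0.461). The second probe did not show this line difference. It stood at 6.67 (cKO1), 6.69 (cKO2) and 6.53 (pcKO1), with an F-test adjusted p of 0.783 (limma, over all probes).

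Asf1a, whose protein hands H3-H4 pairs to HIRA, was detected on 0 of 8 arrays. Its probe had intensities of 123 to 158 and detection p-values of 0.084 to 0.451. No change was read from it, and the HIRA route was thus measured at 2 of its 5 listed genes.

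Of the DAXX and ATRX route, Daxx was detected on every array, with detection p-values of 0. Daxx encodes the chaperone that binds H3.3 itself. Its intensities went from 398 (GFP) to 306 (Cre) in cKO1 and from 354 to 335 in pcKO1. In the cKO2 pairs they went from 310 to 330 and from 335 to 323. Outside cKO1 the Cre and GFP arrays of a pair lay at most 0.14 log2 units apart.

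The change of Daxx was -0.44 (cKO1), 0.038 (cKO2) and -0.12 (pcKO1), with a mean of -0.17 ± 0.15 (SE, n = 3 lines, 95% interval -0.52 to 0.17, limma adjusted p = 0.967). Without cKO1 it was -0.039. By line Daxx was at 8.29 in cKO1, 8.16 in pcKO1 and 8.08 in cKO2, and no pair of neighbours differed beyond its spread (F-test adjusted p = 0.611, limma). Over the 8 arrays its log2 level spanned 0.51, the narrowest range of the 6 genes tested.

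Atrx, which encodes the SNF2-type remodeler that acts with DAXX, was read by 4 probes, and none was detected on any array. Their intensities were 102 to 148 and their detection p-values 0.0614 to 0.947. The mean level of each over 8 arrays, 6.03 to 6.39, fell inside the 5th to 95th percentile of undetected probes. Differences between the arms for these probes are differences at background, and none was read.

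Dek encodes a DNA-binding protein that is also a histone chaperone and is known for an influence on where H3.3 is placed. Of its 3 probes, ILMN_2617499 was detected on 4 of 4 arrays in both arms, ILMN_2617496 on 3 of 4 in both, and ILMN_2755384 on none. The first had log2 levels of 7.94 (GFP) and 8.15 (Cre) in cKO1, 7.53 and 7.16 then 7.22 and 7.48 in the cKO2 pairs, and 6.92 and 6.68 in pcKO1. The duplicate pairs of cKO2 moved in opposite directions, by -0.37 and 0.26.

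The mean change of Dek was -0.030 ± 0.14 (SE, n = 3 lines, 95% interval -0.36 to 0.30, limma adjusted p = 0.995) by the first probe and -0.069 ± 0.13 by the second (adjusted p = 0.981). Both probes put the lines in 1 order. Dek was at 8.04 (cKO1), 7.34 (cKO2) and 6.80 (pcKO1) by the first probe and at 7.73, 7.16 and 6.53 by the second. The F-test adjusted p was 0.00268 and 0.0019 (limma). Line pcKO1 was below cKO1 by a contrast of -1.24 ± 0.18 (adjusted p = 0.00178, limma), cKO2 minus cKO1 was -0.70 ± 0.18 (adjusted p = 0.0205), and pcKO1 minus cKO2 was -0.54 ± 0.18 (adjusted p = 0.05004, just over the threshold).

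Taking the line F-test over the 6 genes, H3f3a, Hira, Hirip3 and Dek passed and H3f3b and Daxx did not, 4 of 6 beside 44.6% of all genes. Line cKO1 was the highest for Hira, Hirip3, Daxx and Dek, and cKO2 for H3f3a. Each gene was read here by its brightest probe. The second Hira probe, below the filter, did not pass the F-test (adjusted p = 0.783, limma), and cKO1 was not its highest line. Line pcKO1, with macrophage markers in both arms, was the lowest for H3f3a, Hira and Dek. Each line is 1 culture, so line, embryo and cell makeup cannot be told apart.

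**Figure D3:**
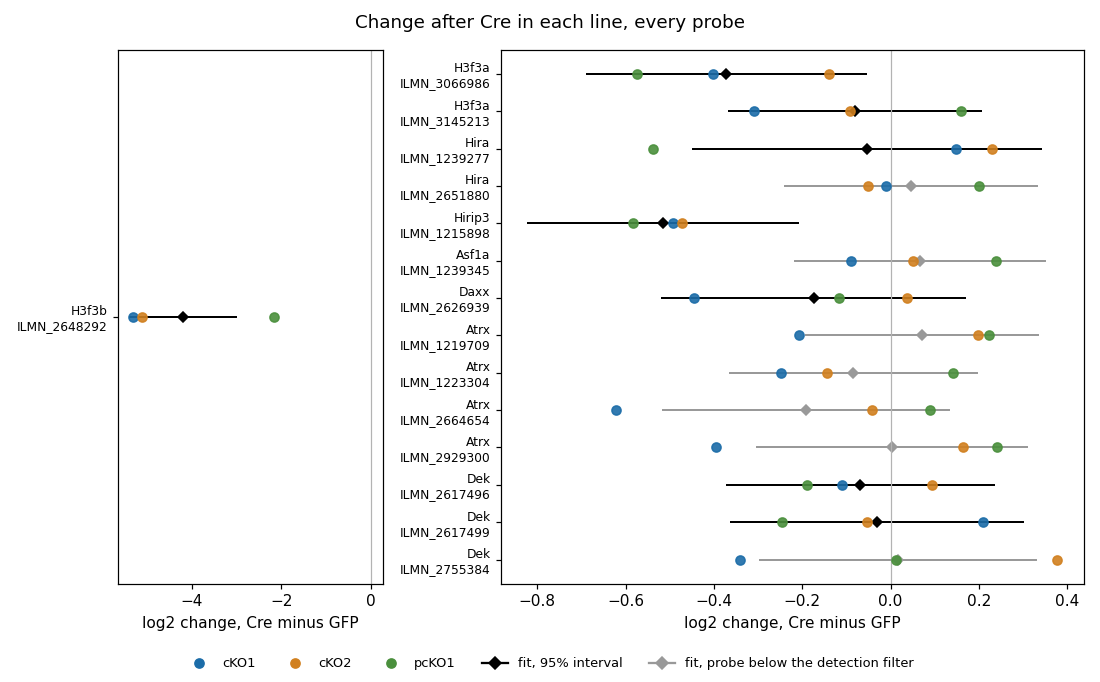
Log2 change (Cre minus GFP) for each of the 15 probes, with circles for the lines, diamonds for the mean of the limma fit and bars for its 95% interval. Grey marks probes below the detection filter, and H3f3b has an axis of its own. Among the black intervals on the right axis, those of Hirip3 (-0.82 to -0.21) and of the dim H3f3a probe ILMN_3066986 lie below 0, and neither passed the threshold after adjustment.

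Other genes that handle H3 and H4 were taken as 3 lists. By limma 0 genes of any list passed the adjusted threshold, and the median change of all genes tested was -0.0077. Among 12 replication-coupled chaperones and carriers tested of 15 listed, which bring H3-H4 to new DNA, the median change was -0.041, but -0.21 without cKO1, 0.011 without cKO2 and 0.053 without pcKO1. It was 0.28 in cKO1, where 1 of the 12 was lower, -0.24 in cKO2, where 9 were, and -0.28 in pcKO1, where 11 were. Genes lower in all 3 lines numbered 0 of 12, beside 13.2% of all genes.

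Of this list Asf1b, the paralog of Asf1a, was at -0.17 ± 0.14 (SE, n = 3 lines), with 0.084 (cKO1), -0.32 (cKO2) and -0.27 (pcKO1). Hat1, which acetylates new H4, was at -0.24 ± 0.21, and Nasp, which holds a reserve of soluble H3-H4, at -0.14 ± 0.17. Cdan1, whose product binds ASF1, was at -0.15 ± 0.15. All 4 were higher in cKO1 and lower in cKO2 and pcKO1, the directions that the proliferation list took, and 1 gene, Mcm2, is on both lists. The adjusted p of each was 0.967 (limma).

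Transcription-coupled chaperones and remodelers, 11 tested of 17 listed, had a median change of -0.018. Of these, 3 were lower in all 3 lines and 0 higher, beside 13.2% and 12.6% of all genes. They were Setd2 (-0.17 ± 0.12), the H3K36 methyltransferase, Zmynd11 (-0.18 ± 0.14), a reader of methylated K36 on H3.3, and Rpa3 (-0.098 ± 0.13), a subunit of the single-strand DNA-binding complex RPA. Setd2 was dim, with a mean log2 level of 6.69 (GFP) and 6.52 (Cre). The Cre mean lay inside the range of undetected probes, so its direction rests on levels near background. Supt6, a histone chaperone that travels with RNA polymerase II, was at 0.071 ± 0.12.

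Among PML body, DAXX and ATRX partners, 10 tested of 17 listed, the median change was -0.087, with 2 genes lower and 1 higher in all 3 lines, beside 13.2% and 12.6% of all genes. Trim28, the corepressor KAP1, was at -0.31 ± 0.12 (SE, n = 3 lines), with -0.45, -0.24 and -0.25 in cKO1, cKO2 and pcKO1 and an unadjusted p of 0.0305 (limma adjusted p = 0.967). Pml, which builds the nuclear bodies where DAXX gathers, was higher in each line, by 0.29, 0.10 and 0.11, with a mean of 0.17 ± 0.13. Dnmt1, the maintenance DNA methyltransferase, was at -0.31 ± 0.20 and Uhrf1, which recruits it, at -0.24 ± 0.21. These last 2 were higher in cKO1 (0.32 and 0.45) and lower in the other lines.

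**Figure D4:**
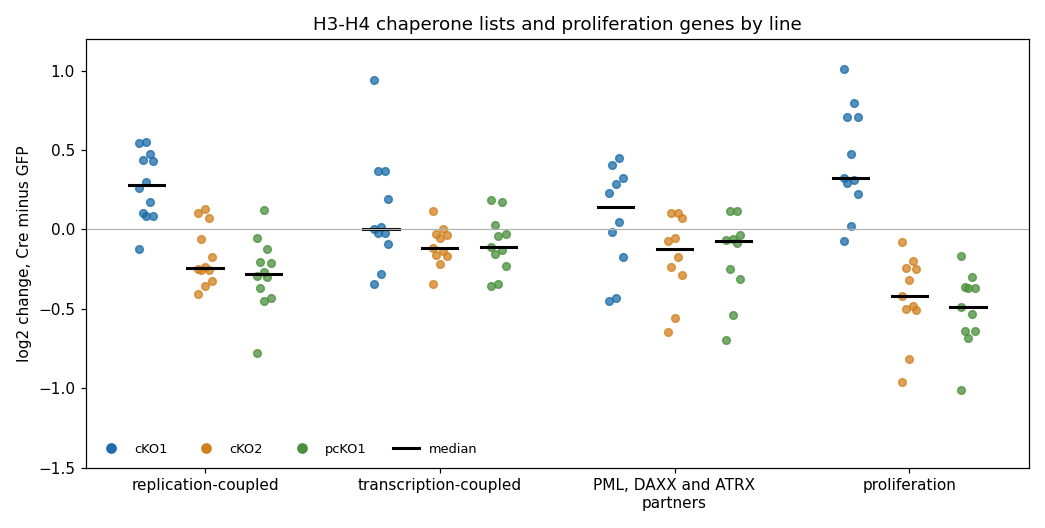
Log2 change (Cre minus GFP) of each tested gene of the 3 chaperone lists and of the proliferation list, by line, with the median as a bar. In the replication-coupled list the medians were 0.28 (cKO1), -0.24 (cKO2) and -0.28 (pcKO1), and in the proliferation list 0.33, -0.42 and -0.49.

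Genes whose levels ran most like those of a member over the 8 arrays were read as a description, since arrays of 1 line share a culture. H3f3b differed mainly by arm (mean log2 level 12.17 in GFP, 7.97 in Cre). A high r with it thus largely restates a lower level after Cre. Closest to H3f3b were H3c14 (Pearson r = 0.948) and, as the fifth, H3c13 (r = 0.891), which encode replication-dependent H3. H3c14 changed by -1.18 (cKO1), -1.997 (cKO2) and -1.06 (pcKO1), and H3c13 by -0.80, -1.90 and -1.15. They belong to a family of near-identical genes, so which copies their probes read is uncertain. A second H3c14 probe, ILMN_3040069, lay between 177 and 213 in intensity on all arrays and was higher after Cre in each pair. It went from 179 (GFP) to 206 (Cre) in cKO1 and from 177 to 213 in pcKO1. In the cKO2 pairs it went from 209 to 211 and from 199 to 207. Between H3c14 and H3c13 stood Zbtb45 (r = 0.928), Cdkn1c, a CDK inhibitor gene (r = 0.909), and the unnamed probe ILMN_1216388 (r = 0.909). Their mean changes were -0.38, -0.44 and -0.19.

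H3f3a ran with Hacd3, an enzyme gene of very long chain fatty acid synthesis (r = 0.989), Zfp449 (r = 0.987) and Cnppd1 (r = 0.987). Their mean changes after Cre were -0.073, -0.0045 and -0.12. Hirip3 ran with Snrpa, a U1 snRNP protein gene (r = 0.977), Rrm1, the large subunit of ribonucleotide reductase (r = 0.971), and H2ax, the H2A variant marked at DNA breaks (r = 0.966). All 3 were lower after Cre in each line. Rrm1 was at -0.19 (cKO1), -0.54 (cKO2) and -0.49 (pcKO1), H2ax at -0.19, -0.55 and -0.59, and Snrpa at -0.31, -0.31 and -0.17. None passed the adjusted threshold (limma adjusted p = 0.967 for each).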

How the data were processed

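The 8 arrays were Illumina MouseRef-8 BeadChips. The authors deposited an intensity table named by sample, in which every array had been scaled to a mean of 508.3 without further correction, and a second table of unscaled intensity with a deposited detection p-value for each probe, made in GenomeStudio (version not given in the labels). Columns of the second table name the arm and a culture name that the labels do not use, so detection is counted by arm. The array of a missed detection was named by scaling each column to the deposited mean and matching it to the first table.

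Intensities named by sample were corrected by normexp (offset 50), quantile normalized and taken to log2. Duplicates of cKO2 were averaged in each arm (r = 0.994 in both). The filter required a detection p below 0.05 on 3 or more arrays. Each gene was read from its brightest probe, and an unnamed probe counted as a gene of its own. Of 25697 probes 23978 had 1 symbol, 0 had several and 1719 had none, and symbols were updated through gene IDs. Changes were fitted in R 4.3.3 with limma 3.58.1 on 8488 genes, with line as a block, an intensity trend and Benjamini-Hochberg at 0.05, and 2 residual plus 6.31 prior degrees of freedom. Probes of members other than those were read from fits over all filtered probes, or over all probes where they failed the filter. Within a line the arms deviated together (r = 0.818, 0.919 and 0.749 across genes in cKO1, cKO2 and pcKO1), and the pairing comes from the labels. The fit was tested on simulated data. The number of arrays limits the precision.

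Named genes were, by rule, all members, the 5, 3 and 3 genes most correlated with H3f3b, H3f3a and Hirip3 over 8 arrays, and from each chaperone list the 4 of smallest unadjusted p. H3c14's second probe and the macrophage and proliferation genes named beside a result came from the marker lists or were added after their values were seen. Members and lists were chosen with earlier results of these data known. Alternatives covered background, scaling, filter, probes, duplicates, pairing, eBayes settings and each line or duplicate pair left out.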

Additional observations from a re-analysis of the deposited data

Results flagged for a closer look

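Within an arm, 1 of 30 sets of 4 arrays (15 probes, 2 arms, duplicates of cKO2 included) had a single array apart from the rest by Dixon's test, where chance gives about 1 in 20. It was the Atrx probe ILMN_1219709 at 6.19 on the cKO1 GFP array, against 5.90 on the other 3 GFP arrays, all of them at background. The change of H3f3a after Cre by its bright probe was opposite in sign in cKO1 and pcKO1, with a difference of -0.47 (cKO1 minus pcKO1), while the dim probe was lower in both (-0.40 and -0.57). The change of Hira was positive in cKO1 and in both cKO2 pairs and negative in pcKO1, a difference of 0.69 for cKO1 minus pcKO1 and of 0.77 for cKO2 minus pcKO1, with its probe undetected on both cKO2 GFP arrays and on the pcKO1 Cre array. The change of Dek was positive in cKO1 and negative in pcKO1, a difference of 0.45. These 4 differences between lines were not tested, since cKO1 and pcKO1 had 1 pair each.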

How the results depend on the processing

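Leaving out arrays changed the calls most. Genes called for Cre against GFP numbered 0 in the fit reported, 3 on the values as deposited, 1 with median scaling, 1 with no filter, 5 with the duplicate pairs as separate pairs and 0 to 100 with a line or duplicate pair left out, where fits on 2 lines had 1 residual degree of freedom and took their spread almost wholly from other genes. H3f3b passed the threshold in 7 settings, each fit with a line left out and those at -3.87 (as deposited), -4.25 (median scaling), -4.20 (no filter) and -4.43 (separate pairs). Its range with arrays left out was -5.21 to -3.64, and it was lower after Cre in 17 of 17 alternatives. With no replicate block (line left out of the fit) 0 genes were called, and the adjusted p of H3f3b was 0.99996. Robust eBayes kept its value at an adjusted p of 0.968. Hirip3 was lower in 18 of 18 alternatives (-0.70 to -0.43, and -0.54 to -0.48 with arrays left out) and passed only without cKO1 (adjusted p = 0.0335). Daxx was lower in 18 of 18. The cause of the turned signs that follow was not tested. H3f3a ran from -0.20 to 0.033 with arrays left out. Hira turned to 0.029 as deposited, 0.068 by neqc on arms without lines and 0.017 with separate pairs, and ran from -0.19 to 0.19 with arrays left out. Dek turned to 0.0032 as deposited and ran from -0.15 to 0.077. H3f3b and Hira were not detected on 8 of 8 arrays, so that filter gave no value for them. Line differences ran from 1838 to 3737 genes with a line left out, against 3788. Genes at least 1.5-fold apart in every line numbered 5, and 8 to 20 with a line left out. Those at least 2-fold apart numbered 2, and 1 without background correction, 1 as deposited and 2 to 3 with a line left out. The replication-coupled median was -0.21 without cKO1 and turned to 0.011 without cKO2 and 0.053 without pcKO1. The transcription-coupled median moved to -0.092 with median scaling and ran from -0.10 to 0.00071. Median scaling put the median of all genes at -0.062.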
